A study of Mus musculus with 11 samples.

Results

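HSC that carry the NUP98-HOXA10HD fusion (NA10hd) were compared directly with HSC that carry NrasG12D (NV), gene by gene across the transcriptome. The comparison takes all 4 NA10hd and all 3 NV libraries, 7 of the 11 RNA-Seq libraries of the study, and leaves the 4 control libraries out of the main fit. The controls enter only an alternative fit of all 3 groups. NA10hd mice hold a knock-in at the ROSA26 locus in which a stop cassette flanked by loxP sites precedes the 3xFlag-tagged fusion and a Tdtomato reporter. NV mice hold the LSL NrasG12D allele in one copy. In both lines the cassette is removed by Vav-Cre, a Cre recombinase driven by the Vav promoter and active throughout blood formation, so every blood lineage and not the HSC alone carries the lesion. The mice were on the C57BL/6 background and 8 weeks of age. Each library came from 1000 bone marrow cells sorted as Lin- CD48- c-Kit+ Sca1+ CD135- CD150+. Littermate control HSC, sorted the same way, are given for some genes as a description only.

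HSC are rare cells that are mostly out of the cell cycle and that rebuild all blood lineages after transplantation. NUP98-HOXA10HD joins a piece of a nuclear pore protein to the DNA-binding homeodomain of a Hox factor and is known for expanding HSC in culture and in mice. Nras is a small GTPase that passes signals from cytokine receptors to the MEK and ERK kinases, and the G12D form stays in its active state. Oncogenic Nras is known to push a share of HSC into division. A cell that enters the cycle first induces the enzymes and loading factors of DNA replication, largely through E2f factors, and later the kinases, spindle proteins and condensins of mitosis.

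Total counts ranged from 7624638 to 12180230 in NA10hd and from 9981499 to 14283008 in NV libraries. Replicates differed by more than counting noise: chi-square over its degrees of freedom was 41.9 to 65.0 between NA10hd libraries and 15.6 to 23.4 between NV libraries. The paper calls the columns of its heatmaps biological replicates. The labels do not say whether replicates came from separate mice, so p-values measure only the spread between these libraries. Xist, the transcript of the inactive X chromosome, had 216 counts in NA10hd replicate 4, which lacked reads of Y-linked genes. In the other 3 NA10hd libraries Xist was at 0 and Y-linked genes were read, and all NV libraries held both. The part of sex in the results was not tested, and 0 DEGs lay on the Y chromosome. Without NA10hd replicate 4, the Y-linked genes Ddx3y and Eif2s3y were called higher and Xist lower in NA10hd. Defining markers of the sort were present in both groups: Kit, the receptor for stem cell factor, had a mean of 310 ± 109 (SD, n = 4) CPM for NA10hd against 292 ± 12.7 (SD, n = 3) for NV, and Slamf1, which encodes CD150, 116 ± 40.8 against 70.1 ± 7.01 CPM. CPM are counts divided by the library total over tested genes, scaled by its TMM factor, and multiplied by 1000000.

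The targeted genes were read on the whole endogenous genes, and neither the mutant Nras allele nor the fusion has an entry of its own in the counts. Nras (chromosome 3, 102862152 to 102871837 of NCBIM37) stood at 108, 90.9, 82.2 and 99.2 CPM in NA10hd replicates 1 to 4 and at 113, 112 and 110 CPM in NV replicates 1 to 3. The NV libraries lay above every NA10hd library, with a log2 fold change of -0.23 (NA10hd minus NV, SE 0.17, edgeR adjusted p = 0.507), which did not pass the test. Hoxa10 (chromosome 6, 52181196 to 52190853) had 56.0, 60.7, 81.1 and 29.7 CPM in NA10hd and 37.2, 21.0 and 31.3 CPM in NV, with overlapping groups and a log2 fold change of 0.93 (SE 0.34, edgeR adjusted p = 0.146). Without NA10hd replicate 4, the lowest library, Hoxa10 passed (log2 fold change 1.15), and it was also called higher in a fit with a replicate block. Nup98 overlapped between the groups, at 5.2, 15.2, 13.9 and 35.6 CPM in NA10hd and 16.3, 8.63 and 17.5 CPM in NV (log2 fold change 0.30, SE 0.56, edgeR adjusted p = 0.839), and its sign turned without NA10hd replicate 4, to -0.30.

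Of 13461 tested genes, 685 were DEGs (5.09%), defined by an adjusted p under 0.05 in edgeR's quasi-likelihood test and a fold change above 1.5. In NA10hd, 309 genes were higher (2.3% of those tested) and 376 were lower (2.79%). A difference above 2-fold was found for 229 of the higher and 276 of the lower DEGs, and one above 4-fold for 67 and 127. The lower DEGs were led by genes of DNA replication and cell division, among them Rrm1, Top2a and Ckap2l. Among the higher were Igf2, H19 and other imprinted genes, genes that mark long-term HSC, Hoxa9, and 25 genes of ribosomal proteins. The libraries of the groups did not overlap for 680 of the 685 DEGs, compared with 21% of all tested genes (9.49% apart and higher in NA10hd, 11.5% apart and lower). The mean of the 4 control libraries lay between those of NA10hd and NV for 293 of the 309 higher and 361 of the 376 lower DEGs (94.8% and 96%), compared with 48.6% of all tested genes. The DEGs were chosen for a wide gap between these groups, which favours a mean in between, so nothing is read from these shares.

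**Figure D1:**
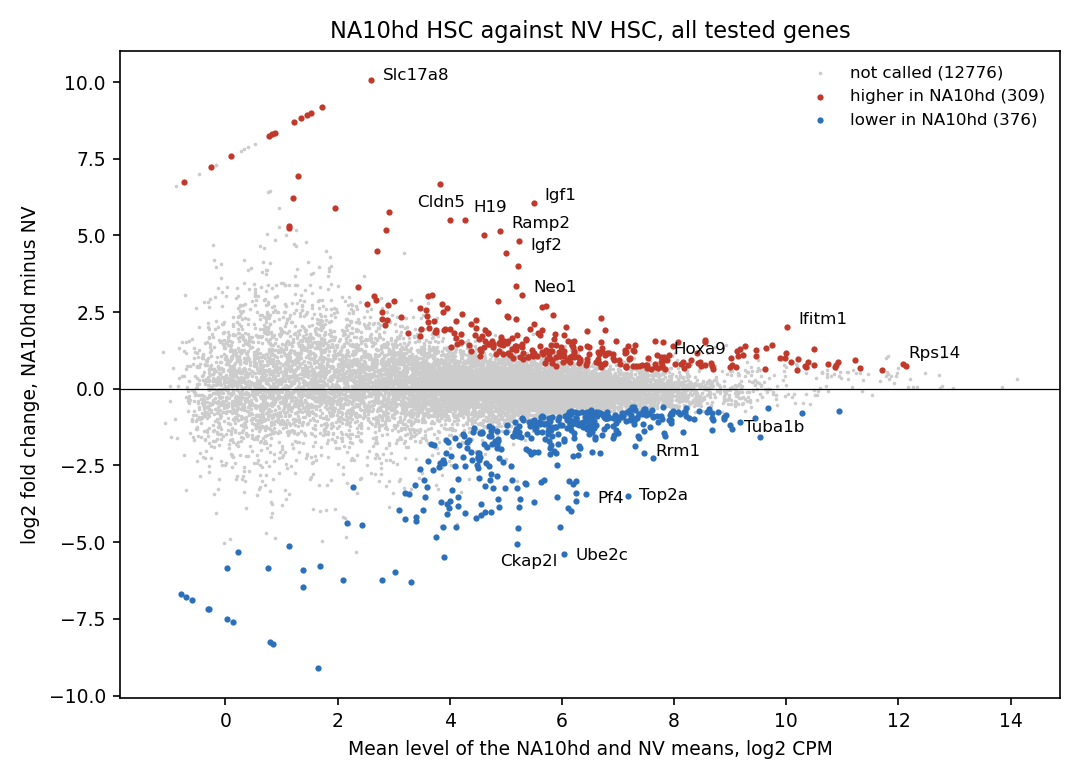
Log2 fold change (NA10hd minus NV) against mean level (log2 CPM) of the 13461 tested genes, with the 309 DEGs higher in NA10hd in red and the 376 lower in blue. Genes with 0 counts in one whole group form the straight diagonals at the left, where the fitted fold change depends on the prior count. Top2a (log2 fold change -3.51) and Ube2c (-5.38) lie far below 0, and Igf1 (6.06) far above.

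The number of DEGs depended on the NV libraries, of which there are only 3. Without NV replicate 1 it was 229, without NV replicate 2 it was 153 and without NV replicate 3 it was 146, whereas leaving out 1 NA10hd library gave 529 to 771. A total of 126 DEGs were called in all 7 of these fits, 45 higher and 81 lower in NA10hd. Such genes are said below to keep their call. Where a named gene lost it, the libraries are given with the highest adjusted p, and where several genes stand together, the libraries are those that all of them shared, so that a single gene of such a group may have lost its call without others as well. Of the 126, 16 were replication genes, 26 cell division genes, 5 imprinted genes, 4 long-term HSC genes and 1 a Hox gene, while 0 encoded ribosomal proteins.

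**Figure D2:**
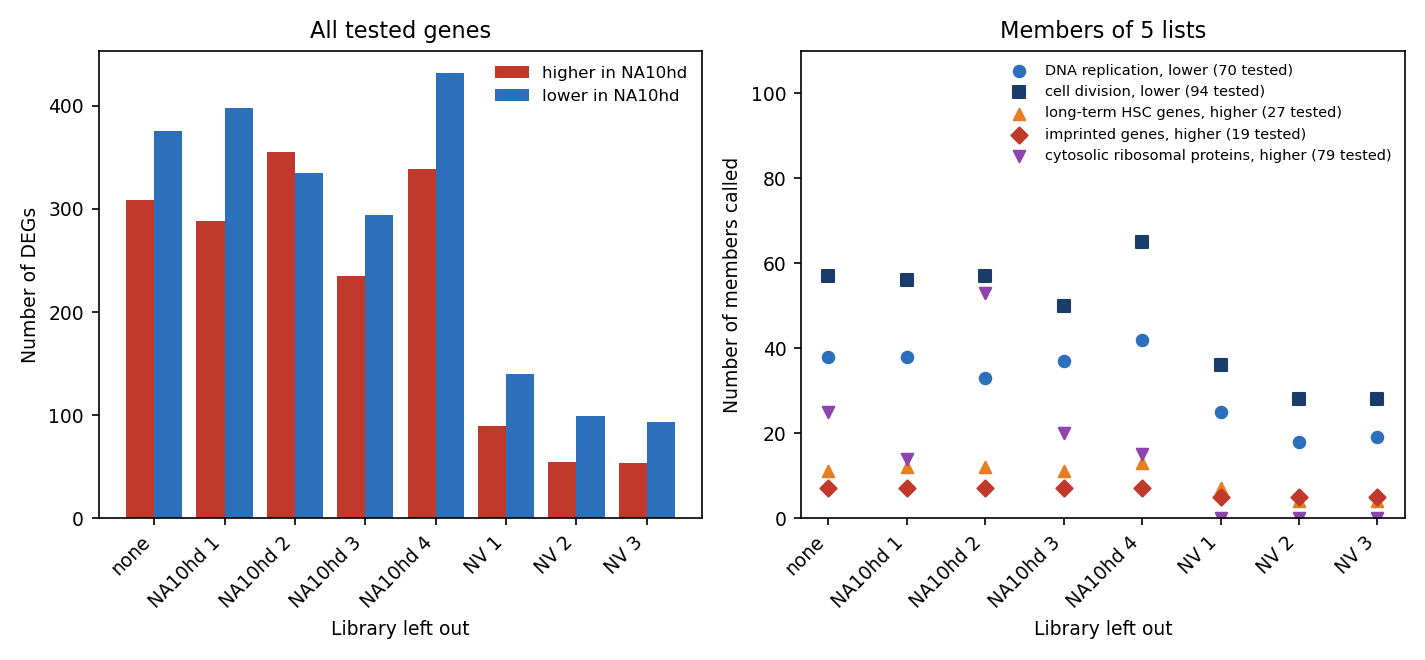
Number of DEGs (left, bars) and number of called members of 5 gene lists (right, points) with no library or with 1 library left out, as named on the x axis. Counts fall when any NV library is left out, to 146 for all genes without NV replicate 3, and the ribosomal protein genes fall to 0.

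DNA replication genes were lower in NA10hd than in NV. Of 70 tested members of the lists for origin licensing, replication forks and deoxynucleotide synthesis, 38 were called, all lower (54.3%, against 2.79% of all genes). The median log2 fold change over the 70 was -1.27, against 0.01 over all tested genes, and 66 of the 70 were below 0. The members summed to 3786 to 4142 CPM in NA10hd, 8163 to 8697 CPM in NV and 5099 to 6009 CPM in control libraries. In bulk libraries, fewer cells in cycle and less RNA per cell cannot be told apart. Called members numbered 25 without NV replicate 1, 18 without NV replicate 2 and 19 without NV replicate 3, and 33 to 42 without any one NA10hd library.

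Rrm1 and Mcm6 are shown with the 250 bases before their start, since they were the replication DEGs of smallest p whose window holds the letters of an E2f site. Windows are from RefSeq on GRCm38.p6, the capitals mark matches on either strand to the letters TTGGCGC, the letters TTCGCGC or the letters TTCCCGC, and positions count back from the start. Rrm1 has 1 match at -67, and Mcm6 has 4 matches in 2 stretches, because matches on opposite strands overlap.
Rrm1 (chr7:102441445-102441694, + strand): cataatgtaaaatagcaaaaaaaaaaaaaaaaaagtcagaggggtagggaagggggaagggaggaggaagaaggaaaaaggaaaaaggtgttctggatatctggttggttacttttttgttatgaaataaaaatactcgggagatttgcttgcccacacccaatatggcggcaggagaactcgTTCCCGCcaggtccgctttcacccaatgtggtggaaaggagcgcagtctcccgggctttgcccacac
Mcm6 (chr1:128359706-128359955, - strand): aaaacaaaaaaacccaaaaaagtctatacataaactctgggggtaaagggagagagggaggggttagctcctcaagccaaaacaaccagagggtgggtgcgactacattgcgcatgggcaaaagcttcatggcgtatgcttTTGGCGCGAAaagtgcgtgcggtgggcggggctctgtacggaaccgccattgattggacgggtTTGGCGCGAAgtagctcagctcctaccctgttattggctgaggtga

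Deoxynucleotide synthesis had the DEG of second smallest p among all genes. Rrm1 (chromosome 7, 109590209 to 109618285 of NCBIM37), the large subunit of ribonucleotide reductase, stood at 67.5, 71.5, 65.3 and 62.5 CPM in NA10hd and at 272, 317 and 274 CPM in NV. The groups were far apart relative to the spread within either, with means of 66.7 ± 3.80 (SD, n = 4) and 287 ± 25.4 CPM (SD, n = 3), a 4.31-fold lower level in NA10hd (log2 fold change -2.11, SE 0.15, edgeR adjusted p = 0.000128). Tk1, the thymidine kinase of S phase, had 22, 19.2, 10.6 and 10.7 CPM in NA10hd and 119, 141 and 115 CPM in NV. Every NV library lay over 5 times above the highest NA10hd library, and Tk1 fell by 3.0 on the log2 scale (SE 0.29, edgeR adjusted p = 0.000405). Tyms, which makes thymidylate, had 41.7, 20.2, 26.7 and 16 CPM against 120, 115 and 125 CPM (log2 fold change -2.20, SE 0.29, edgeR adjusted p = 0.00220). Dut, which removes dUTP, was lower by a log2 fold change of -1.53. These 4 kept their call. Dck and Dtymk, kinases of nucleosides and of thymidylate, were called at -1.30 and -0.70 but lost the call without any NV library and without NA10hd replicate 2 or 3 (also 1 for Dtymk), with an edgeR adjusted p of up to 0.202 and 0.217. In all, 7 of 15 tested members were called.

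Among the loading and firing factors of replication origins, 14 of 26 were called, all lower, and all 26 had a log2 fold change below 0. The Mcm helicase is loaded onto origins before S phase and unwinds DNA during it, and all 6 of its subunits were called, with log2 fold changes from -1.25 (Mcm3) to -2.25 (Mcm5). Mcm6 stood at 225, 214, 177 and 319 CPM in NA10hd and at 571, 613 and 583 CPM in NV. Its groups did not overlap although NA10hd replicate 4 was higher than the other 3, and the log2 fold change was -1.33 (SE 0.19, edgeR adjusted p = 0.00361). Cdt1, which loads the helicase, Mcm10 and Wdhd1, which act at its firing, had log2 fold changes of -1.59, -2.51 and -1.98. These 3, Mcm4 and Mcm6 kept their call, while Mcm2, Mcm7 and the kinase Cdc7 lost it without NV replicate 2 or 3, Mcm5 without NV replicate 2, and Mcm3 without any NV library (highest edgeR adjusted p = 0.113). Recql4, a helicase, had 0 counts in all NA10hd libraries and 2.31, 5.66 and 2.79 CPM in NV, and lost its call without any NV library (highest edgeR adjusted p = 0.133).

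At the replication fork, 17 of 29 tested genes were called, all lower. Pcna, the sliding clamp of DNA polymerases, had 310, 326, 313 and 309 CPM in NA10hd and 731, 729 and 679 CPM in NV. The 4 NA10hd libraries lay within 17 CPM of each other and below the control mean of 461 CPM, and the log2 fold change was -1.18 (SE 0.13, edgeR adjusted p = 0.000779). Asf1b, a histone chaperone of dividing cells, stood at 19.7, 13, 27.8 and 21.3 CPM against 84.7, 101 and 82.8 CPM (log2 fold change -2.13, SE 0.27, edgeR adjusted p = 0.00148). Lig1, which seals Okazaki fragments, and Dnmt1, which copies DNA methylation onto the new strand, had log2 fold changes of -1.49 and -1.54. Hells, a chromatin remodeller, and the histone carrier Nasp had -2.27 and -1.65. These 6 kept their call. The primase subunits Prim1 and Prim2, the polymerase subunits Pola2 and Pold1 and the checkpoint adaptor Timeless were called but lost the call without any NV library (highest edgeR adjusted p = 0.220, for Prim2).

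**Figure D3:**
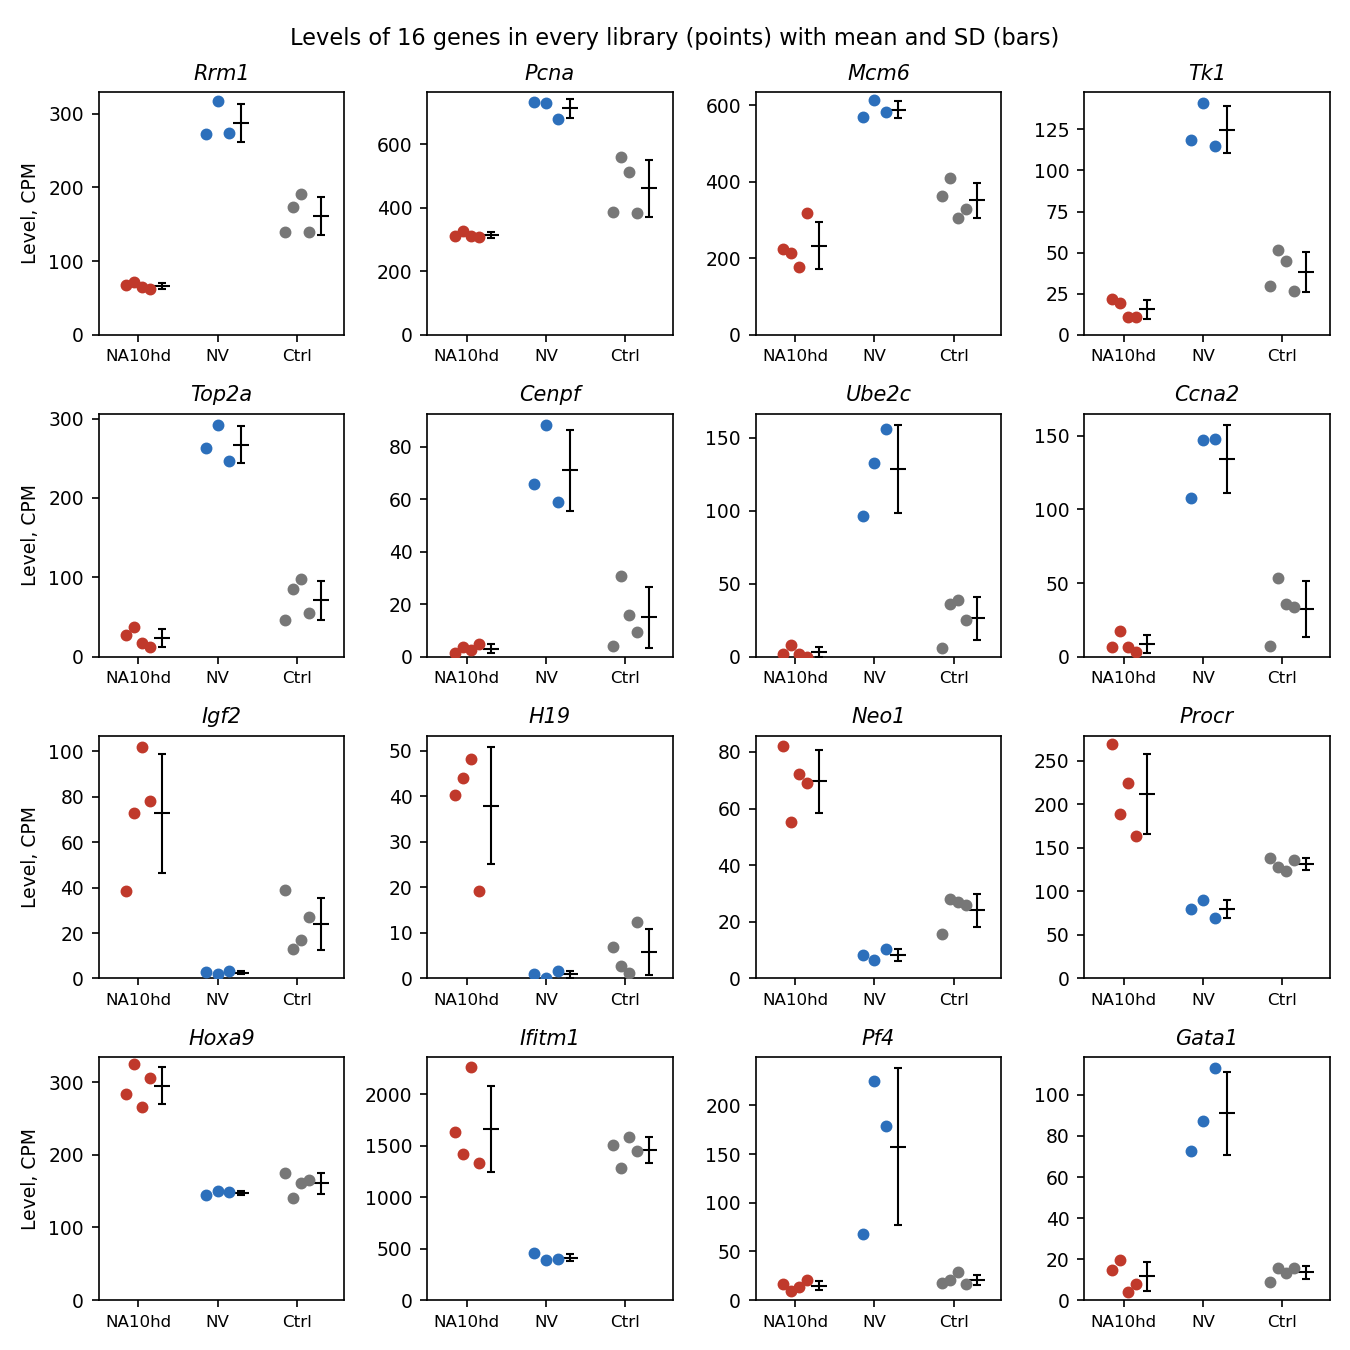
Level in CPM of 16 genes in every library, with points for the 4 NA10hd, 3 NV and 4 control (Ctrl) libraries, horizontal ticks for the mean and bars for the SD. The NA10hd and NV points do not overlap in any panel, and the mean of the control points lies between their means in all 16 panels.

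Genes of cell division were also lower in NA10hd. Of 94 tested genes for mitotic kinases and checkpoint, kinetochore, spindle, cytokinesis and condensins, 57 were called, all lower in NA10hd (60.6%, against 2.79% of all tested genes). The median log2 fold change over the 94 was -2.47, and 92 of the 94 were below 0. Among genes with at least 10 counts in every library, a filter that removes members near 0 in NA10hd, the median was -1.62 and 40 members were called, and the median of the replication genes was -1.19. The members summed to 2318 to 2906 CPM in NA10hd, 6593 to 7528 CPM in NV and 2859 to 3969 CPM in control libraries. Without NV replicate 1, 2 or 3, the number of called members was 36, 28 and 28, and without any one NA10hd library 50 to 65.

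Ckap2l and Top2a are shown because they were the cell division DEGs of smallest p whose 250-base window (RefSeq, GRCm38.p6) holds both a CHR, the element of genes expressed late in the cycle (TTTGAA or TTCGAA), and a CCAAT box, each searched on both strands. The capitals mark these matches. Ckap2l has 1 CHR match at -30 and 3 CCAAT matches from -122 to -14, and Top2a has 4 CHR matches from -179 to -23 and 6 CCAAT matches from -227 to -58.
Ckap2l (chr2:129297213-129297462, - strand): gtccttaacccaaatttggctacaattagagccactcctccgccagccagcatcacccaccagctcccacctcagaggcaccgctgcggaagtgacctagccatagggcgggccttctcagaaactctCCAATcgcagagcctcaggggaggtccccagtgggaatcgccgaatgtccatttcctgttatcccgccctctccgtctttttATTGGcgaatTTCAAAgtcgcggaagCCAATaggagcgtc
Top2a (chr11:99024190-99024439, - strand): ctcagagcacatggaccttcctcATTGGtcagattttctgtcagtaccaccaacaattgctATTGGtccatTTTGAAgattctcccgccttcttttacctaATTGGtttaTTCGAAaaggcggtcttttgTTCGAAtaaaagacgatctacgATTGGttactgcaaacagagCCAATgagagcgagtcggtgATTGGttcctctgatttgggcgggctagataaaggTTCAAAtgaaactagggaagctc

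A window was found for 47 of the 57 cell division DEGs and 32 of the 38 replication DEGs. The CHR letters stood in 23 of the 47 (48.9%) and 8 of the 32 (25%), against 19.6% of all 27025 windows. A CCAAT box stood in 35 (74.5%) and 17 (53.1%), against 37.5%. The E2f letters stood in 7 of the 47 (14.9%) and 11 of the 32 (34.4%), against 7.68%. Of the 13461 tested genes, 9819 (72.9%) had a window, too few for a full check. Among these, the CHR letters stood in 14.8%, a CCAAT box in 40.7% and the E2f letters in 14.2%, so the E2f share of the cell division DEGs was near that of tested genes. These shares describe letters in windows and were not tested.

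Among spindle and cytokinesis genes, 17 of 27 were called. Ckap2l, a protein of the mitotic spindle (chromosome 2, 129093946 to 129122948 of NCBIM37), stood at 1.09, 3.58, 1.65 and 1.95 CPM in NA10hd and at 61.5, 64.2 and 88.4 CPM in NV. No NA10hd library came near the lowest NV library, and the means of 2.07 ± 1.07 (SD, n = 4) and 71.3 ± 14.8 CPM (SD, n = 3) gave a log2 fold change of -5.07 (SE 0.40, edgeR adjusted p = 0.000173). Tpx2, which activates Aurora A and nucleates microtubules, had 4.96, 8.83, 5.04 and 4.32 CPM against 71.7, 72.3 and 67.9 CPM (log2 fold change -3.60, SE 0.31, edgeR adjusted p = 0.000269). The motor proteins Kif4, Kif11 and Kif22, the bundling protein Prc1, the ring protein Anln and Aspm, a protein of the spindle poles, were lower by log2 fold changes between -2.42 and -4.22, and all kept their call. Kif14, at 0.242, 0, 0 and 0.558 CPM in NA10hd and 3.27, 20.1 and 17.8 CPM in NV, lost its call without NV replicate 2 or 3 (log2 fold change -6.22, SE 1.16, edgeR adjusted p = 0.0120, and up to 0.103 without one of them). Of the exon bases of Kif4, 15.1% are shared with a gene on the opposite strand, and the strand setting of the counting is not given in the sources used here.

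Mitotic kinases and checkpoint genes had the largest share of called members, 16 of 22. Ube2c, the ubiquitin-conjugating enzyme of the anaphase-promoting complex, stood at 2.06, 7.87, 1.65 and 0 CPM in NA10hd and at 96.5, 133 and 156 CPM in NV. The groups did not overlap and the log2 fold change was -5.38 (SE 0.72, edgeR adjusted p = 0.00223), with 22.8% of its exon bases shared with Tnnc2 on the opposite strand. Aurkb, the kinase of the chromosomal passenger complex, had 11.9, 2.62, 4.87 and 1.67 CPM against 96.8, 126 and 138 CPM (log2 fold change -4.52, SE 0.52, edgeR adjusted p = 0.000790). Its partners Birc5, Incenp and Cdca8 were lower by log2 fold changes of -3.06, -2.07 and -3.11, and all 5 of these genes and Mad2l1 (-1.62), a checkpoint protein, kept their call. The kinases Plk1, Bub1 and Aurka had log2 fold changes of -3.84, -4.01 and -3.74. Their calls were lost without NV replicate 2 or 3, those of Bub1 and Aurka also without NV replicate 1 and that of Aurka without NA10hd replicate 1 or 3 (highest edgeR adjusted p = 0.184). Bub1 missed the threshold with DESeq2 (DESeq2 adjusted p = 0.0645).

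Of 26 kinetochore and centromere genes, 11 were called, and of 19 genes of condensins and mitotic chromatin, 13. Cenpf, a kinetochore protein of G2 and M phase, had 1.21, 3.50, 2.43 and 5.02 CPM in NA10hd and 65.8, 88.3 and 58.9 CPM in NV (log2 fold change -4.55, SE 0.42, edgeR adjusted p = 0.000390). Top2a (chromosome 11, 98854257 to 98885503 of NCBIM37), which untangles sister chromatids, stood at 27.5, 36.8, 17.0 and 11.8 CPM in NA10hd and at 263, 292 and 246 CPM in NV. Every NV library lay more than 6 times above the highest NA10hd library, and the log2 fold change was -3.51 (SE 0.33, edgeR adjusted p = 0.000390). Mki67, the antigen used to mark cycling cells, had 13.8, 24.1, 5.30 and 1.67 CPM against 118, 159 and 149 CPM (log2 fold change -3.64, SE 0.60, edgeR adjusted p = 0.00633). These 3, the condensin subunits Ncapd2 (-2.10) and Ncapg2 (-2.26) and the cohesin acetyltransferase Esco2 (-4.85) kept their call. Cenpa, the centromeric histone, was called at -1.36 but lost the call without any NV library and without NA10hd replicate 1, 2 or 3 (highest edgeR adjusted p = 0.212).

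Cyclins and Cdk genes followed the same direction, with 10 of 18 called and lower (55.6%, against 2.79% of all tested genes). Cks1b, a small subunit of Cdk complexes, had 34.7, 36.8, 27.2 and 34.9 CPM in NA10hd and 123, 129 and 129 CPM in NV (log2 fold change -1.93, SE 0.19, edgeR adjusted p = 0.000405). Ccna2, the cyclin of S and G2 phase, stood at 6.41, 17.3, 6.25 and 3.35 CPM against 108, 147 and 148 CPM (log2 fold change -3.98, SE 0.45, edgeR adjusted p = 0.000779), with 14.6% of its exon bases shared with Exosc9 on the opposite strand. Ccnb1, the cyclin of mitosis, had 7.02, 5.17, 18.1 and 7.67 CPM against 70.9, 152 and 109 CPM (log2 fold change -3.54, SE 0.42, edgeR adjusted p = 0.00103). These 3, Ccnb2, Cdk1 and Cks2 kept their call. The D cyclins, which respond to growth signals in G1, did not pass the test, with log2 fold changes of -0.75 for Ccnd1 (edgeR adjusted p = 0.381), 0.43 for Ccnd2 (edgeR adjusted p = 0.227) and -0.18 for Ccnd3 (edgeR adjusted p = 0.821).

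The partners of the D cyclins were lower. Cdk6 had 54.6, 41.0, 53.1 and 6.83 CPM in NA10hd and 131, 222 and 148 CPM in NV, with no overlap, and Cdk4 had log2 fold change -0.75, against -2.10 for Cdk6. Cdk4 lost its call without any NV library, and Cdk6 also without NA10hd replicate 2 or 3 (highest edgeR adjusted p = 0.173). Cdkn1c, which encodes the Cdk inhibitor p57 and is imprinted, was the one called gene of 9 Cdk inhibitors and pocket proteins that was higher. It stood at 86.5, 60.8, 72.0 and 74.9 CPM in NA10hd and at 17.0, 18.0 and 15.6 CPM in NV, with every NA10hd library over 3 times above the highest NV library (log2 fold change 2.12, SE 0.23, edgeR adjusted p = 0.000676), and kept its call. Rbl1, which encodes p107, was lower (-1.83) and kept its call, and Cdkn2c (p18) was lower (-2.55) but lost its call without any NV library (highest edgeR adjusted p = 0.114). Cdkn1a (p21) and Cdkn1b (p27) overlapped between the groups, with log2 fold changes of 1.21 and 0.96 and edgeR adjusted p = 0.361 and 0.177.

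Among 16 genes of E2f and DREAM factors, which switch cell cycle genes on and off, 4 were called and lower (25%, against 2.79% of all tested genes). Tfdp1, the dimer partner of E2f proteins, stood at 61.5, 73.6, 63.8 and 56.1 CPM in NA10hd and at 163, 184 and 194 CPM in NV (log2 fold change -1.50, SE 0.17, edgeR adjusted p = 0.000790), and kept its call. E2f1 had 8.83, 5.65, 9.73 and 19.8 CPM against 28.2, 59.4 and 26.7 CPM, and its call (log2 fold change -1.80, edgeR adjusted p = 0.0445) was lost without any library but NA10hd replicate 4. Mybl2 and E2f7 were called at -2.47 and -1.79 and lost their call without any NV library or NA10hd replicate 3, E2f7 also without NA10hd replicate 2 (highest edgeR adjusted p of the 3 genes 0.276). Foxm1, a driver of mitotic genes, did not overlap between the groups but did not pass the test (log2 fold change -1.63, edgeR adjusted p = 0.319).

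**Figure D4:**
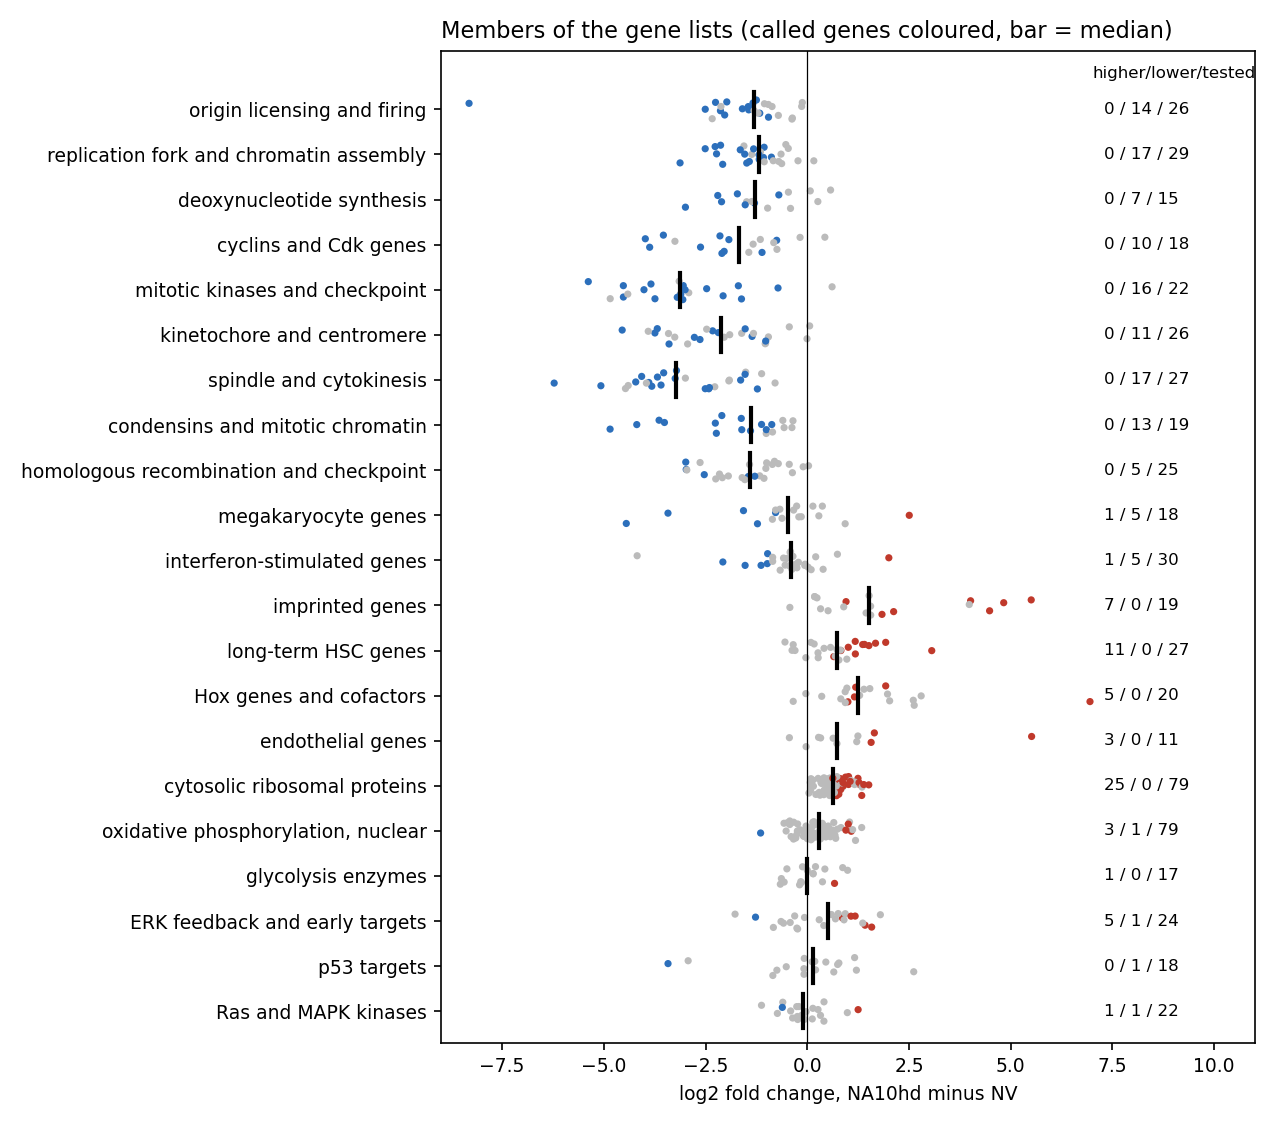
Log2 fold change (NA10hd minus NV) of each tested member of 21 gene lists, with called genes in red (higher in NA10hd) or blue (lower), other genes in grey and a black bar at the median. Numbers at the right give the members called higher, called lower and tested, such as 0, 16 and 22 for mitotic kinases and checkpoint.

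Of 25 genes of homologous recombination and the replication checkpoint, 5 were called, all lower (20%, against 2.79% of all tested genes). A log2 fold change below 0 was found for 24 of the 25, with a median of -1.42. Brca1, which acts in the repair of broken DNA, stood at 10, 5.09, 6.95 and 8.65 CPM against 39.6, 41.6 and 51.7 CPM (log2 fold change -2.53, SE 0.33, edgeR adjusted p = 0.00180). Brca1 and Rad51ap1 (-2.99) kept their call, whereas Rad54l (-1.45) and the checkpoint kinase Chek1 (-1.29) lost it without any NV library and without NA10hd replicate 3 (Chek1 also without 1 or 2, highest edgeR adjusted p = 0.209). Of 18 targets of p53, only Gtse1, a protein of G2 and S phase, was called, a share of 5.56% near the 5.09% of all tested genes. It had 1.69, 0.875, 2.87 and 1.12 CPM against 22.9, 18.9 and 11.5 CPM, a log2 fold change of -3.42 (SE 0.58, edgeR adjusted p = 0.00711), and lost its call without NV replicate 1 or 2 (up to 0.0639). The median over the 18 was 0.15, and 0.057 to 0.24 without any one library, but -0.12 with limma-voom and -0.08 with a replicate block.

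Imprinted genes, which are expressed from one parental copy and several of which act in fetal growth and in HSC maintenance, were higher in NA10hd. Of 19 tested, 7 were called, all higher (36.8%, against 2.3% of all genes), and 18 of 19 had a log2 fold change above 0, with a median of 1.52. The median was 1.0 without NV replicate 2 and 0.98 without NV replicate 3. The listed genes summed to 780 to 880 CPM in NA10hd, 363 to 453 CPM in NV and 491 to 729 CPM in control libraries. Called members numbered 5 without any one NV library and 7 without any one NA10hd library.

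The called imprinted genes included neighbours on chromosome 7 and on chromosome 12. Igf2 (chromosome 7, 149836673 to 149852721 of NCBIM37), a fetal growth factor, stood at 38.5, 72.9, 102 and 78.0 CPM in NA10hd and at 2.71, 1.75 and 3.27 CPM in NV. The lowest NA10hd library was more than 10 times above the highest NV library, with a log2 fold change of 4.83 (SE 0.41, edgeR adjusted p = 0.000269). H19, a noncoding RNA next to Igf2 (149761434 to 149764048), had 40.3, 44.1, 48.1 and 19.2 CPM against 0.956, 0 and 1.64 CPM (log2 fold change 5.5, SE 0.82, edgeR adjusted p = 0.00403). On chromosome 12, Meg3, a noncoding RNA (110779211 to 110809936), had 69.8, 83.1, 76.2 and 50.2 CPM against 6.93, 2.29 and 3.75 CPM (log2 fold change 4.01, SE 0.40, edgeR adjusted p = 0.000405). Dlk1, which encodes a Notch-related membrane protein of the same cluster (110691033 to 110701546), stood at 18.1, 11.1, 10.8 and 9.76 CPM against 0.557, 0.944 and 0.0963 CPM (log2 fold change 4.48, SE 0.77, edgeR adjusted p = 0.00830). These 4 and Cdkn1c kept their call. Mirg, a noncoding RNA of the Meg3 cluster, was at 1.70 ± 0.592 CPM (SD, n = 4) against 0.0899 ± 0.156 CPM (SD, n = 3) and did not pass (edgeR adjusted p = 0.130).

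Igf2r, the receptor that removes Igf2, had 21.8, 20.4, 18.5 and 22.7 CPM in NA10hd and 7.25, 6.27 and 3.95 CPM in NV. It was called at a log2 fold change of 1.84 (SE 0.39, edgeR adjusted p = 0.0232), and Ndn, a growth suppressor known to act in HSC, at 0.95, and both lost their call without any NV library (highest edgeR adjusted p = 0.161). Grb10 and Sgce overlapped between the groups (log2 fold changes 0.24 and 0.33, edgeR adjusted p = 0.518 and 0.509). Of the exon bases of Meg3, 7.75% are shared with other genes, and of Igf2, 1.78%.

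Genes that mark long-term HSC were higher in NA10hd for 11 of 27 tested members (40.7%, against 2.3% of all tested genes), with 0 lower, and the median log2 fold change was 0.73. The members summed to 7144 to 8035 CPM in NA10hd, 5180 to 5677 CPM in NV and 6063 to 7076 CPM in control libraries. Without NV replicate 1, 2 or 3, the number of called members was 7, 4 and 4, and without any one NA10hd library 11 to 13.

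Neo1, the receptor neogenin (chromosome 9, 58722486 to 58884248 of NCBIM37), had the largest change of this list. It stood at 82.0, 55.2, 72.3 and 69.2 CPM in NA10hd and at 8.20, 6.41 and 10.5 CPM in NV, so that every NA10hd library was over 5 times above the highest NV library (log2 fold change 3.06, SE 0.28, edgeR adjusted p = 0.000390). Procr, which encodes the surface marker EPCR, had 269, 188, 224 and 163 CPM against 79.6, 90.3 and 69 CPM (log2 fold change 1.41, SE 0.21, edgeR adjusted p = 0.00379). Mllt3, a reader of acylated histones that maintains HSC in culture, stood at 545, 458, 472 and 423 CPM against 216, 207 and 204 CPM (log2 fold change 1.18, SE 0.15, edgeR adjusted p = 0.00180). Pdzk1ip1 had 477, 427, 659 and 672 CPM against 210, 177 and 200 CPM (log2 fold change 1.51, SE 0.20, edgeR adjusted p = 0.00192). These 4 kept their call.

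Fgd5, used as a reporter gene of HSC, had 90.1, 116, 132 and 87.3 CPM in NA10hd and 57.1, 25.1 and 42.0 CPM in NV (log2 fold change 1.36, SE 0.29, edgeR adjusted p = 0.0219). Fgd5, Hoxb5 and Clec1a lost their call without NV replicate 2 or 3, and Prdm16, Hlf and Vwf, at log2 fold changes of 1.18, 0.83 and 1.01, without any NV library (highest edgeR adjusted p = 0.182). Mecom and Meis1, transcription factors of HSC, overlapped between the groups, at log2 fold changes of 0.41 (edgeR adjusted p = 0.354) and -0.03 (edgeR adjusted p = 0.95). Ly6a, which encodes Sca1, was lower in every NA10hd than in any NV library but did not pass the test (log2 fold change -0.55, edgeR adjusted p = 0.102).

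Hox genes and their cofactors were tested for 20 members, of which 5 were called, all higher in NA10hd (25%, against 2.3% of all tested genes), and 18 had a log2 fold change above 0, with a median of 1.24. Called members numbered 2 without NV replicate 1, 1 without NV replicate 2 or 3, and 4 to 6 without any one NA10hd library. Hoxa9 (chromosome 6, 52173099 to 52181088 of NCBIM37), a Hox factor of stem and leukemia cells, stood at 284, 325, 266 and 306 CPM in NA10hd and at 144, 150 and 149 CPM in NV. Both groups were narrow and lay apart, with means of 295 ± 25.4 (SD, n = 4) and 148 ± 3.12 CPM (SD, n = 3), a 2.0-fold difference (log2 fold change 1.0, SE 0.15, edgeR adjusted p = 0.00413). Hoxa9 kept its call, and the NV mean was close to the control mean of 161 CPM.

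Hoxb5, a marker of long-term HSC that is also on that list, had 21.2, 22, 26.1 and 24.8 CPM in NA10hd and 7.72, 5.39 and 5.39 CPM in NV (log2 fold change 1.93, SE 0.36, edgeR adjusted p = 0.0120). Hoxb9 had 5.2, 2.39, 7.21 and 4.60 CPM against 0, 0 and 0.0963 CPM. This is 189 counts over the NA10hd group and 1 count over the NV group, a ratio of 172 per count sequenced with an exact 95% interval of 30.5 to 6821 that covers counting error only. Hoxa5 and Hoxa7 were higher by log2 fold changes of 1.16 and 1.19, with 20.4% of the exon bases of Hoxa7 shared with a gene on the opposite strand. Hoxb5 lost its call without NV replicate 2 or 3, Hoxb9 and Hoxa5 without any NV library, and Hoxa7 also without NA10hd replicate 3 (highest edgeR adjusted p = 0.168). The Hox partner Meis1 overlapped between the groups, at a log2 fold change of -0.03 (edgeR adjusted p = 0.95). With DESeq2, 11 Hox genes and cofactors were called, all higher.

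**Figure D5:**
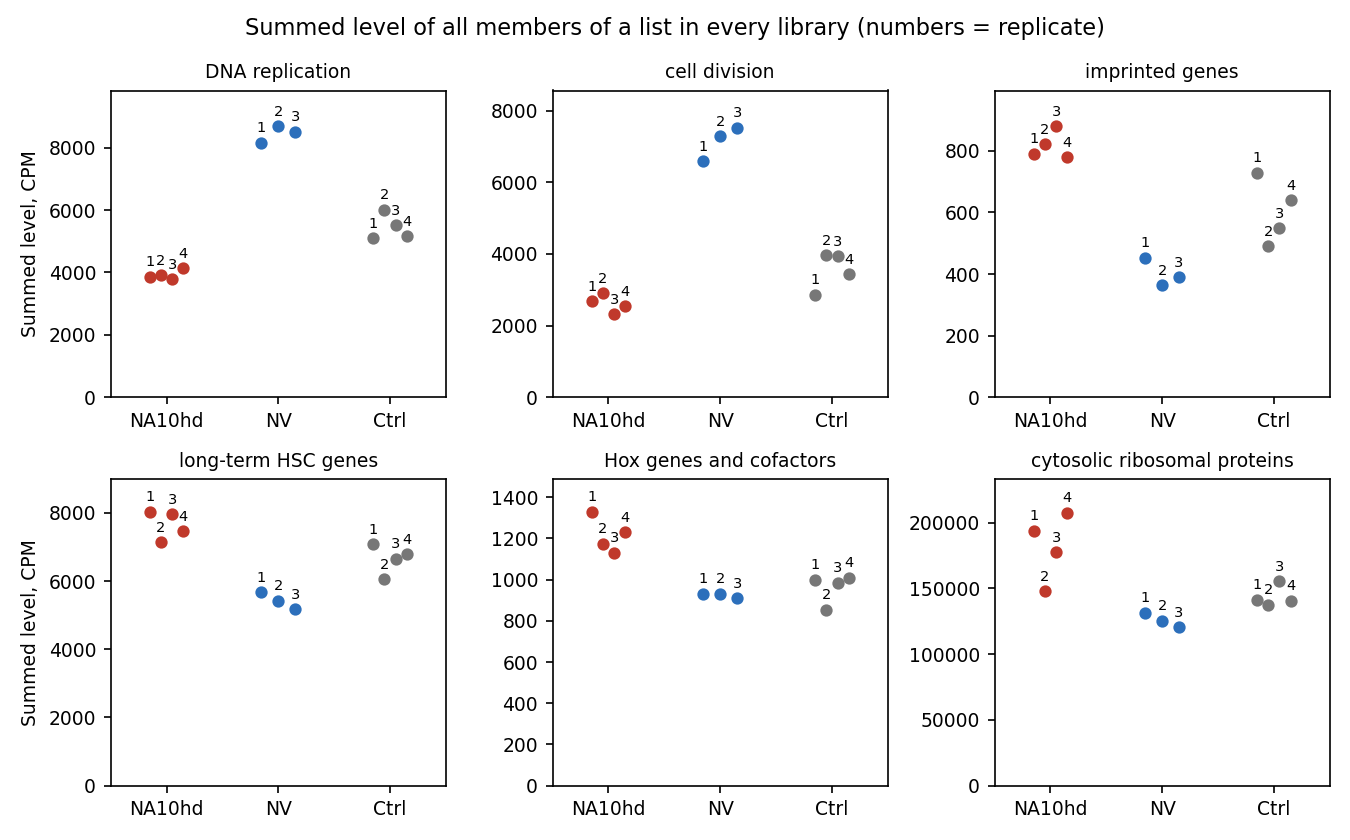
Summed level in CPM of all members of 6 gene lists in every library, with points numbered by replicate for NA10hd, NV and control (Ctrl). NA10hd points lie below NV points for DNA replication (3786 to 4142 against 8163 to 8697 CPM) and cell division, and above them in the other 4 panels.

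The largest increases among DEGs with non-overlapping libraries are given next, most of them outside the lists. Ramp2, a subunit of the adrenomedullin receptor, had the smallest unadjusted p of all genes, with an adjusted p tied with that of Rrm1. It stood at 74.8, 39.7, 66.4 and 51.9 CPM in NA10hd and at 1.43, 1.89 and 1.54 CPM in NV (log2 fold change 5.15, SE 0.36, edgeR adjusted p = 0.000128), with 33.4% of its exon bases shared with Vps25 on the same strand. Igf1, insulin-like growth factor 1, had 105, 87.9, 118 and 44.8 CPM against 0.159, 1.82 and 2.02 CPM (log2 fold change 6.06, SE 0.62, edgeR adjusted p = 0.000476). Pdgfc, a platelet-derived growth factor, stood at 73.8, 61.5, 50.6 and 59.1 CPM against 1.03, 2.77 and 4.72 CPM (log2 fold change 4.44, SE 0.46, edgeR adjusted p = 0.000492). All NA10hd libraries of these genes lay over 10 times above the highest NV library. Klrb1c, which encodes the NK1.1 receptor, had 61.6, 42.8, 37.0 and 47.3 CPM against 2.55, 0.0674 and 1.83 CPM (log2 fold change 5.01, SE 0.72, edgeR adjusted p = 0.00335).

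A930038C07Rik, a gene named by its clone, had 22.4, 34.8, 42.8 and 12.6 CPM in NA10hd and 0.159, 0.270 and 0.385 CPM in NV (log2 fold change 6.66, SE 0.65, edgeR adjusted p = 0.000405). Slc17a8, a vesicular glutamate transporter, stood at 5.69, 9.22, 9.21 and 24.4 CPM in NA10hd and had 0 counts in all NV libraries. Against the limit of 3 counts over the NV group (0.0820 CPM), its level was at least 143-fold higher in NA10hd (edgeR adjusted p = 0.00301). Its control mean of 27.5 CPM was above both groups. Ncam2, an adhesion molecule of the adhesion and homing list that likewise had 0 counts in NV, was at least 79.4-fold higher. Ramp2, Igf1, Pdgfc, Klrb1c, A930038C07Rik, Slc17a8 and Ncam2 kept their call. Inhba, a subunit of activins, had 17.7, 15.3, 19.8 and 6.83 CPM against 0.637, 0.135 and 0 CPM (log2 fold change 5.77, SE 0.94, edgeR adjusted p = 0.00598) and missed the threshold without NV replicate 2 (edgeR adjusted p = 0.0512). Gpx3, a glutathione peroxidase, had 8.59, 5.73, 5.21 and 37.2 CPM against 0, 0.135 and 1.06 CPM, and lost its call (log2 fold change 5.19, edgeR adjusted p = 0.0353) without NA10hd replicate 4 or NV replicate 1 or 2 (up to 0.173).

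Cldn5, a tight junction protein of endothelium, was also among the largest increases, at 59.5, 17.7, 34.3 and 14.6 CPM in NA10hd and 0.478, 0.539 and 1.06 CPM in NV (log2 fold change 5.51, SE 0.66, edgeR adjusted p = 0.00104), and kept its call. Of 11 tested endothelial genes, 3 were called, all higher (27.3%, against 2.3% of all tested genes). The sialomucin Emcn (1.57) lost its call without NV replicate 2 or 3 and the receptor Kdr (1.65) without any NV library (highest edgeR adjusted p = 0.127). The 14 listed endothelial genes summed to 695 to 789 CPM in NA10hd and 541 to 608 CPM in NV, with Sox17 at 0 in all 7 libraries. Pecam1 and Tie1, which also mark endothelium, overlapped between the groups (log2 fold changes 0.64 and -0.03, edgeR adjusted p = 0.628 and 0.970). The part of endothelial cells in these results was not tested.

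Several genes of platelets and red cells were lower in NA10hd. Of 18 tested megakaryocyte genes, 5 were called lower and 1, Clec1b, higher (33.3% called, against 5.09% of all tested genes). The median log2 fold change was -0.48, which was -0.77 without NA10hd replicate 1 and -0.30 without NV replicate 3. Pf4, platelet factor 4 (chromosome 5, 91201461 to 91202407 of NCBIM37), stood at 16.2, 9.30, 13.1 and 20.4 CPM in NA10hd and at 68.4, 225 and 178 CPM in NV. NV replicate 1 was lower than the other 2 NV libraries but still above every NA10hd library, and the log2 fold change was -3.42 (SE 0.39, edgeR adjusted p = 0.000781). Itga2b, the integrin CD41, had 46.7, 34.0, 58.5 and 56.2 CPM against 87.4, 180 and 167 CPM (log2 fold change -1.57, SE 0.27, edgeR adjusted p = 0.00872). Pf4 kept its call, Itga2b and the thrombin receptor gene F2r (-1.22) lost it without NV replicate 2 or 3, and Cd9, Ppbp and Clec1b without any NV library (highest edgeR adjusted p = 0.202). Glycoproteins of the platelet surface such as Gp9 and Gp5 overlapped between the groups, and Tubb1 and Gp6 were at 0 in all 7 libraries. Called members lower in NA10hd numbered 3 without NV replicate 1 and 1 without NV replicate 2 or 3. Over all 20 listed genes the sum was 1413 to 1607 CPM in NA10hd and 1712 to 2116 CPM in NV.

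Gata1, the master factor of red cells and megakaryocytes (chromosome X, 7536386 to 7555197 of NCBIM37), had 14.8, 19.8, 3.91 and 7.67 CPM in NA10hd and 72.7, 87.3 and 113 CPM in NV. The NA10hd libraries lay around the control mean of 13.5 CPM, and the log2 fold change was -2.97 (SE 0.45, edgeR adjusted p = 0.00407). Klf1, which acts with it in red cells, stood at 0.726, 0.557, 2.26 and 0 CPM against 9.71, 21.2 and 21.8 CPM (log2 fold change -4.25, SE 0.88, edgeR adjusted p = 0.0199). These were the 2 called of 7 tested erythroid genes (28.6%, against 2.79% of all tested genes called lower). Gata1 kept its call and Klf1 lost it without NV replicate 2 or 3 (up to 0.126). Rhd, which marks maturing red cells, was at 0 in all 7 libraries, and the list summed to 885 to 1284 CPM in NA10hd and 1472 to 1590 CPM in NV. Here too, fewer cells of a kind and less RNA per cell cannot be told apart. Mfsd2b, a sphingosine phosphate transporter of red cells and platelets, had 7.38, 15.2, 17.5 and 12.1 CPM against 89.5, 151 and 176 CPM (log2 fold change -3.40, SE 0.32, edgeR adjusted p = 0.000405) and kept its call. F2rl2, a thrombin receptor of platelets, stood at 0, 2.07, 0 and 0.279 CPM against 18.3, 43.4 and 25.9 CPM (log2 fold change -5.5, edgeR adjusted p = 0.0120) and lost its call without NV replicate 2 or 3 (up to 0.102).

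Genes of other lineages were read at levels that differed between the lists. Of 16 listed lymphoid genes, Cd3e, Cd3g, Cd2, Pax5, Ms4a1 and Ncr1 were at 0 in all 7 libraries, and the sum was 58.4 to 122 CPM in NA10hd and 69.7 to 95.4 CPM in NV. Nkg7, of cytotoxic granules, was the one called of the 4 tested (log2 fold change -2.58, edgeR adjusted p = 0.0344), a share of 25% against 5.09% of all tested genes. It lost its call without any NV library and without NA10hd replicate 2 (up to 0.180). Of mature myeloid and stromal genes, 4 and 3 were tested and 0 were called by edgeR, limma-voom or DESeq2, with 0 at an unadjusted p under 0.05 in edgeR. They summed to 385 to 530 and 13.2 to 26.5 CPM in NA10hd and 506 to 531 and 8.67 to 14.7 CPM in NV. Among 15 tested genes of multipotent progenitors, 2 were lower, among them Plac8 (-1.03), and 1, the neutrophil protease gene Prtn3, was higher (0.75). This is 20% called, against 5.09% of all tested genes. Plac8 and Prtn3 lost their call without any NV library and without NA10hd replicate 1 or 3 (highest edgeR adjusted p = 0.207).

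Genes of Ras signalling were next, since NV carries active Nras and NA10hd does not. Of 22 tested Ras proteins and kinases of the MAPK cascade, 2 were called (9.09%, against 5.09% of all tested genes). Rras, a relative of Nras, was higher in NA10hd, at 63.4, 58.1, 70.7 and 104 CPM against 36.1, 29.3 and 27.8 CPM (log2 fold change 1.25, SE 0.26, edgeR adjusted p = 0.0193). Rras lost its call without any NV library (highest edgeR adjusted p = 0.130). Of 24 tested feedback and early targets of ERK, 5 were higher and 1 was lower (25% called, against 5.09% of all tested genes). DESeq2 called 6 higher and 3 lower. A further 4 listed targets were below the filter on low counts, among them Etv4, an Ets factor, which had 0 counts in all NA10hd libraries and 3.58, 0.607 and 6.74 CPM in NV. Junb, an AP-1 factor, stood at 500, 321, 646 and 790 CPM in NA10hd and at 186, 213 and 167 CPM in NV (log2 fold change 1.58, SE 0.27, edgeR adjusted p = 0.00754). Etv5, an Ets factor induced by ERK, ran the other way, at 81.2, 58.5, 35.1 and 48.7 CPM against 144, 149 and 112 CPM (log2 fold change -1.27, SE 0.26, edgeR adjusted p = 0.0202). Egr1, an early response factor, had 1696, 1244, 1578 and 478 CPM against 481, 459 and 459 CPM, with NA10hd replicate 4 inside the NV range. Junb lost its call without NV replicate 3 (edgeR adjusted p = 0.0687), and Etv5, Egr1, Ier2, Ier3 and Dusp2 without any NV library (highest edgeR adjusted p = 0.234). The number of higher members was thus 1 without NV replicate 1 or 2 and 0 without NV replicate 3, and 3 without NA10hd replicate 1 and 2 without NA10hd replicate 3. The called members did not share a direction.

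Stat5 targets, which cytokine receptors induce, had 2 of 11 called, both higher (18.2%, against 2.3% of all tested genes). Socs2, a feedback inhibitor of cytokine signalling, stood at 160, 126, 172 and 93.6 CPM in NA10hd and at 33.3, 32.6 and 47.2 CPM in NV (log2 fold change 1.87, SE 0.26, edgeR adjusted p = 0.00256) and kept its call. The kinase gene Pim1 (2.75), with 23.7% of exon bases shared with a gene on the opposite strand, lost its call without any NV library (up to 0.145). Among 25 tested cytokines and receptors of HSC, 4 were called, all higher (16%, against 2.3% of all tested genes). They included Csf2rb, Il11ra1 and Il6st, at log2 fold changes of 1.56, 0.79 and 1.17. These 3 lost their call without any NV library (highest edgeR adjusted p = 0.189). Of 13 tested Bcl2 family genes, Bcl2 itself, which protects from cell death, was the one called, at 51.1, 57.1, 44.6 and 45.5 CPM against 97.6, 116 and 137 CPM (log2 fold change -1.24, SE 0.20, edgeR adjusted p = 0.00525). It missed the threshold without NV replicate 3 (edgeR adjusted p = 0.0591). The called share of the Bcl2 family, 7.69%, came from this 1 gene and was near the 5.09% of all tested genes.

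Interferon-stimulated genes had 5 of 30 tested members lower in NA10hd and 1 higher (20% called, against 5.09% of all tested genes), with a median log2 fold change of -0.40. Oas2, an RNA sensor induced by interferon, had 23.8, 34.7, 45.9 and 37.9 CPM in NA10hd and 150, 170 and 130 CPM in NV (log2 fold change -2.08, SE 0.23, edgeR adjusted p = 0.000779). The NA10hd libraries lay around the control mean of 33.7 CPM. Ifitm1, a membrane protein that is also abundant in resting HSC, was the exception, at 1636, 1417, 2265 and 1335 CPM against 455, 388 and 401 CPM (log2 fold change 2.0, SE 0.20, edgeR adjusted p = 0.000405). Oas2 and Ifitm1 kept their call. Usp18, Oas3 and Oas1a lost theirs without NV replicate 2 or 3, Oas3 also without NV replicate 1 and Oas1a without NA10hd replicate 3 (highest edgeR adjusted p = 0.173), so that 2 lower members were left without either of these libraries. Of 21 genes of MHC and antigen presentation, the class II genes H2-Ab1 and H2-Eb1 were lower (-1.23 and -2.07), and both lost their call without any NV library and without NA10hd replicate 2 or 3 (highest edgeR adjusted p = 0.175). The called share of the 21, 9.52%, compares with 5.09% of all tested genes.

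Cytosolic ribosomal protein genes were higher in NA10hd for 25 of 79 tested members (31.6%, against 2.3% of all tested genes), with 0 lower, and all 79 had a log2 fold change above 0, with a median of 0.63. The changes were small, from 0.63 to 1.51 among the called genes. Rpl36 had 782, 487, 999 and 1008 CPM in NA10hd and 326, 371 and 307 CPM in NV (log2 fold change 1.29, SE 0.24, edgeR adjusted p = 0.0114). Rps14 stood at 5885, 4435, 5056 and 6748 CPM against 3201, 3330 and 2935 CPM (log2 fold change 0.81, SE 0.16, edgeR adjusted p = 0.0163). In both, NA10hd replicate 2 was the lowest of its group. The calls depended on single libraries, since 0 were left without any one NV library, 14 without NA10hd replicate 1, 15 without NA10hd replicate 4, and 53 were made without NA10hd replicate 2, and Rpl36 and Rps14 lost theirs without any NV library (highest edgeR adjusted p = 0.113). The median of the list stayed above 0 in every fit. Ribosomal protein genes took 15.2% to 19.5% of all counts in NA10hd, 12.5% to 13.4% in NV and 13.6% to 15.5% in control libraries. Ribosomal protein genes have many near-identical pseudogenes, and how reads that match both were counted is not given in the sources used here.

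Mitochondrial counts moved the same way, with 3.42% to 5.28% of all counts in NA10hd and 2.56% to 3.16% in NV. Each NA10hd library had fewer genes with a count (13859 to 15455) than any NV library (15683 to 15900), although NA10hd replicates 2 and 3 were sequenced more deeply than NV replicate 3. The 50 most abundant genes took 20.3% to 23.5% of the counts in NA10hd and 17.7% to 18.8% in NV. The part of RNA quality or library composition in these results was not tested. Of 79 nuclear genes of oxidative phosphorylation, 3 were higher (Ndufa6, Ndufa11 and Uqcrh, at log2 fold changes of 1.01, 1.08 and 0.95) and 1, cytochrome c (Cycs, -1.15), was lower. Of 17 glycolysis enzymes, Ldhb was called (0.67), a share of 5.88%. All 5 lost their call without any NV library (highest edgeR adjusted p = 0.223). The called share of the 79, 5.06%, was near the 5.09% of all tested genes. The mitochondrial gene mt-Nd2, a subunit of complex I, had 2468, 1158, 1381 and 3185 CPM against 882, 678 and 932 CPM (log2 fold change 1.30, SE 0.31, edgeR adjusted p = 0.0381), one of the 6 largest gains in CPM, and lost its call without any NV library or NA10hd replicate 1 (up to 0.190).

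The DEGs with the largest differences in CPM below NV were as follows. Tuba1b, an alpha tubulin, stood at 266, 353, 311 and 281 CPM in NA10hd and at 736, 797 and 715 CPM in NV (log2 fold change -1.31, SE 0.15, edgeR adjusted p = 0.000790). Ran, the GTPase of nuclear transport and spindle assembly, had 410, 322, 411 and 356 CPM against 802, 765 and 795 CPM (log2 fold change -1.07, SE 0.15, edgeR adjusted p = 0.00248). Slc25a5, the ADP and ATP carrier of mitochondria, had 474, 453, 441 and 549 CPM against 840, 936 and 976 CPM (log2 fold change -0.94, SE 0.14, edgeR adjusted p = 0.00437). These 3 kept their call. Rgs1, which dampens chemokine receptors, stood at 551, 229, 185 and 524 CPM against 1336, 961 and 1014 CPM (log2 fold change -1.57, SE 0.34, edgeR adjusted p = 0.0260), and Rgs1, Tubb5 (-0.78) and Hspa8 (-0.71) lost their call without any NV library (highest edgeR adjusted p = 0.175).

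Ezh1 and Ezh2, which differed in opposite directions, are alternative methyltransferases of the Polycomb complex PRC2. Ezh1 had 228, 180, 184 and 199 CPM in NA10hd and 89.6, 90.6 and 76.3 CPM in NV (log2 fold change 1.21, SE 0.17, edgeR adjusted p = 0.00286). Ezh2 ran the other way, at 55.5, 33.2, 67.0 and 62.1 CPM against 153, 153 and 161 CPM (log2 fold change -1.52, SE 0.23, edgeR adjusted p = 0.00428). Both kept their call. The Polycomb genes Cbx6 and Cbx7 were higher (1.13 and 1.04) and lost their call without any NV library (highest edgeR adjusted p = 0.202). Of 20 tested genes of DNA methylation and Polycomb, these 4 were called (20%, against 5.09% of all tested genes). Of 27 tested replication-dependent histone genes, 2 were higher and 1 lower (11.1% called, against 5.09% of all tested genes). The median log2 fold change was 1.22 and 21 of the 27 were above 0, the opposite direction to the replication genes. The listed histone genes summed to 687, 828, 887 and 250 CPM in NA10hd and to 290, 267 and 243 CPM in NV. Hist1h2ac had 107, 101, 112 and 26.1 CPM against 19.6, 7.96 and 13.5 CPM (log2 fold change 2.66, edgeR adjusted p = 0.0111), with NA10hd replicate 4 near NV. It lost its call without NV replicate 2 or 3, and the linker histone genes Hist1h1c and Hist1h1b, called in opposite directions, without any NV library (highest edgeR adjusted p = 0.178).

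FoxO targets and quiescence genes had 5 of 21 called, all higher (23.8%, against 2.3% of all tested genes), with a median log2 fold change of 0.62. The called genes were Cdkn1c, Arrdc3, Ypel3, Foxo1 and Btg2. Apart from Cdkn1c they lost their call without NV replicate 2 or 3, and Ypel3, Foxo1 and Btg2 also without NA10hd replicate 3 or 4 and others (highest edgeR adjusted p = 0.227). Among 18 adhesion and homing genes, 4 were higher and 1, the integrin Itgb2 (-1.07), was lower (27.8% called, against 5.09% of all tested genes). Cd82, a tetraspanin of dormant HSC, stood at 105, 84.9, 123 and 110 CPM in NA10hd and at 46.7, 40.2 and 31.7 CPM in NV (log2 fold change 1.42, SE 0.22, edgeR adjusted p = 0.00445) and kept its call, as did Ncam2. Jam2 (1.83) lost it without NV replicate 2 or 3, and Cd63 (0.95) and Itgb2 without any NV library (highest edgeR adjusted p = 0.202). Of 15 stress response genes, 2 were higher and 1, Hspa8, was lower, as given above (20% called, against 5.09% of all tested genes). Ppp1r15a, which reverses the block of translation under stress, had 354, 314, 306 and 490 CPM against 145, 152 and 120 CPM (log2 fold change 1.39, SE 0.20, edgeR adjusted p = 0.00361) and kept its call, while Trib3 (1.45) lost it without any NV library (up to 0.126). Of 21 genes of ribosome biogenesis and Myc targets, Dkc1, Ddx21 and Nop56 were lower (-0.96, -0.87 and -0.94) and Mycn higher (0.66). This is 19% called, against 5.09% of all tested genes, and all 4 lost their call without any NV library (highest edgeR adjusted p = 0.229).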

How the data were processed

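RNA-Seq libraries were made from amplified cDNA of 1000 sorted HSC per aliquot with the Nextera XT kit. The authors aligned reads to NCBIM37 with HISAT2, counted them per gene with featureCounts and deposited raw counts with no normalization, as 1 table of 37991 gene identifiers in 11 libraries. Tool versions, the strand setting and the treatment of reads that match several genes are not given in the sources used here. Symbols and coordinates are from the mouse annotation of that build, which named 37205 identifiers.

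From the deposited counts, the 4 NA10hd and 3 NV libraries were fitted with edgeR 4.0.16 (R 4.3.3), with TMM scaling, its default filter on low counts and a quasi-likelihood test. A gene was a DEG at a fold above 1.5 and a p below 0.05 after Benjamini-Hochberg adjustment. The study used DESeq2, which was run here as an alternative (1.42.0) beside limma-voom (3.58.1), other filters and scalings, a replicate block, a joint fit with controls and leaving out each library. The test was tried on simulated counts with known changes. CPM were counts over the library total of tested genes times its TMM factor, multiplied by 1000000. For bounds, a group with 0 counts was set to 3 counts, and full library totals were used without TMM scaling. Intervals and bounds thus cover counting error only.

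The 40 gene lists and the comparison itself were chosen with earlier results of these data known. Named genes were the members of these lists, the 10 DEGs of smallest p, the 12 largest changes in each direction among DEGs with libraries apart and a mean of at least 10 CPM in the higher group, the targeted and sex-linked genes and the 6 largest differences in CPM in each direction. Promoter windows were the 250 bases before each start in a RefSeq table of GRCm38.p6. Genes were matched by Ensembl identifier, else by symbol or synonym, with no coordinates converted between builds. Some genes of the lists are counted but not reported here by name.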

Additional observations from a re-analysis of the deposited data

Results flagged for a closer look

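In groups of 4 libraries, a library was picked out when its gap to the nearest of the others over the range of the group exceeded Dixon's 95% critical value. Of 79 genes and 5 measures of the libraries tried in NA10hd, 6 had such a library, and chance picks out about 1 in 20. Tpx2 had 8.83 CPM in NA10hd replicate 2, against 4.32 to 5.04 CPM in the other 3 libraries, all below NV. Dlk1 had 18.1 CPM in NA10hd replicate 1, against 9.76 to 11.1 CPM. Gpx3 had 37.2 CPM in NA10hd replicate 4, against 5.21 to 8.59 CPM. F2rl2 had 2.07 CPM in NA10hd replicate 2, against 0 to 0.279 CPM. Hist1h2ac had 26.1 CPM in NA10hd replicate 4, against 101 to 112 CPM. Xist had 30.1 CPM in NA10hd replicate 4 and 0 CPM in the other 3 libraries.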

How the results depend on the processing

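The 685 DEGs (309 higher, 376 lower) became 1495 (846 and 649) with DESeq2, 1152 (564 and 588) with all 3 groups in one fit, and 185 (68 and 117) in a test against a fold of 1.5. Of the main calls, 679 were shared by DESeq2 and 651 by limma-voom. The share of DEGs that were higher was 45.1% in edgeR, 56.6% with DESeq2 and 37.3% with limma-voom. In the test against a fold of 1.5, called members fell to 22 for replication, 37 for cell division, 5 for long-term HSC, 2 for Hox and 0 for ribosomal protein genes. DESeq2 called 11 Hox genes and 41 ribosomal protein genes, and the fit of 3 groups also called 41 of the latter. With 1 library left out, DEGs ranged from 146 to 771 (53 to 355 higher, 93 to 432 lower), and called members from 18 to 42 for replication, 28 to 65 for cell division, 4 to 13 for long-term HSC, 5 to 7 for imprinted, 1 to 6 for Hox and 0 to 53 for ribosomal protein genes. Same-numbered libraries did not deviate together over the tested genes as a whole (correlations of 0.0091, -0.025 and 0.0315). These values take all tested genes at once, so they cannot tell whether same-numbered libraries share a batch or litter. With the replicate block there were 581 DEGs, 459 of them shared with the main fit, 11 ribosomal protein genes, and Nup98 turned to a log2 fold change of -0.37. With 1 library left out, Nup98 lay between -0.30 (without NA10hd replicate 4) and 0.61. Of the Y-linked genes, limma-voom turned Ddx3y to -0.77, Eif2s3y to -0.60, Kdm5d to -0.01 and Uty to -0.93. Uty lay between -0.17 and 0.44 with 1 library left out. In the main fit none of Nup98 and these genes was a DEG. With the replicate block and without NA10hd replicate 4, Ddx3y and Eif2s3y were called higher (1.16 and 1.41, and 1.16 and 1.42) and Xist lower, and limma-voom also called Xist lower. At least 10 counts in every library moved the median of cell division genes from -2.47 to -1.62. The causes of these shifts were not tested. Depth was at least 7624638 counts in each NA10hd and NV library and at least 5464815 counts in each control library, and its part in the calls was not tested.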

Other observations

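The following groups were chosen after values were seen and are given as descriptions. Of 10 tested tubulins, 5 were called, all lower, and the median over the 10 was -0.86 on the log2 scale. Among the called, Tuba8 had the largest change, at 4.55 against 53.9 CPM (means, log2 fold change -3.58, edgeR adjusted p = 0.00385). Of 51 tested genes of nuclear transport, 10 were lower and 0 higher. Kpna2, an importin, had means of 8.58 CPM in NA10hd and 74.0 CPM in NV (log2 fold change -3.10, edgeR adjusted p = 0.000405), and Ranbp1, a partner of Ran, 62.0 and 154 CPM (-1.31). Tuba8, Kpna2 and Ranbp1 kept their call with any one library left out. Of 14 serine and one-carbon enzymes and 15 genes of purine synthesis and salvage, 4 each were lower, where 2.79% of all tested genes were called lower. Among them were Psat1 (-1.12) and Mthfd2 (-2.36), which feed one-carbon units, and Paics (-0.86) and Gart (-1.90), which build the purine ring. All 4 lost their call without NV replicate 2 or 3, Mthfd2 and Gart also without NV replicate 1 (highest edgeR adjusted p = 0.135).

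In other groups some members were called higher in NA10hd, against 2.3% of all tested genes. Of 11 tested retinoid genes, 4 were called, all higher, with a median log2 fold change of 1.1. Among them were the retinol dehydrogenase gene Rdh10 (111 against 37.6 CPM), the receptor gene Rarb (61.4 against 20.3 CPM) and Cyp26b1, which degrades retinoic acid (33.7 against 9.91 CPM). These 3 lost their call without NV replicate 2 or 3, Cyp26b1 also without NV replicate 1 or NA10hd replicate 1 or 3 (highest edgeR adjusted p = 0.171). Of 8 tested members of the Gimap family of GTPases, 3 were called higher and 2 had a log2 fold change below 0. Gimap5 had means of 154 CPM in NA10hd and 53.5 CPM in NV (log2 fold change 1.53, edgeR adjusted p = 0.00181), Gimap6 694 and 343 CPM (1.02) and Gimap1 252 and 154 CPM (0.71). Gimap5 and Gimap6 kept their call, and Gimap1 lost it without any NV library or NA10hd replicate 3 (highest edgeR adjusted p = 0.202). Of 13 protein genes of the mitochondrial genome, mt-Nd2 and mt-Nd6 were called, both higher, and 12 had a log2 fold change above 0. Both lost their call without any NV library or NA10hd replicate 1 (highest edgeR adjusted p = 0.190).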
